A study of Schizosaccharomyces pombe with 3 samples.

Results

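Fission yeast (Schizosaccharomyces pombe) defends itself against reactive oxygen with a small set of scavenging enzymes and the transcription factors that control them. The binding of the corepressor Ssn6 at 10 of these genes is described here. They are the catalase gene ctt1, the glutathione peroxidase gene gpx1, the superoxide dismutase gene sod1, the thioredoxin gene trx2, the thioredoxin reductase gene trr1, the glutathione S-transferase genes gst1, gst2 and gst3, and the regulator genes pap1 and prr1. The array features named by one of these symbols or its systematic name were taken, both the coding feature and the intergenic feature with the prefix IGR-, which was read as the region upstream of the named gene. A further feature, IGR-longIGRctt1, is not named by the symbol alone and was not counted as a member. This gave 22 features, 11 upstream and 11 coding, of the 10213 features on the array other than controls and constructs. The arrays were 2-colour chromatin immunoprecipitation arrays from a strain carrying Ssn6 fused to GFP, harvested in mid log growth from rich YES medium, crosslinked, and precipitated with a polyclonal antibody to GFP. Each of 3 separate experiments was hybridised to 1 array, precipitate against input, and the arrays are called Sl1, Sl2 and Sl10 after their titles. No oxidant is named in the labels, so the values describe cells that were not deliberately stressed. The sources used here do not give the promoter that drives the fusion, and the arrays include neither a mock precipitation nor cells without the tag.

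Ssn6 is a tetratricopeptide repeat protein that works with the Tup1-type proteins Tup11 and Tup12, does not itself recognise DNA sequence, and is brought to promoters by DNA-binding factors. Oxidative stress genes of fission yeast are induced mainly through the stress kinase Sty1 with its factor Atf1, which recognises the cAMP response element, and through Pap1, an AP-1-type factor that is exported from the nucleus in unstressed cells and stays in the nucleus after mild peroxide treatment. Prr1 is a response regulator with a heat-shock-factor-type DNA-binding domain and is needed with Pap1 for the induction of ctt1 and trr1. Catalase and glutathione peroxidase remove hydrogen peroxide, superoxide dismutase converts superoxide to peroxide, thioredoxin and its reductase pass electrons from NADPH to oxidised proteins, and glutathione S-transferases couple glutathione to reactive compounds.

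Promoter sequences were read from the RefSeq genome, build ASM294v3, for the 250 bases before each annotated gene start. The ends of the array's own intergenic regions and their build are not given in the sources used here, so these windows stand beside the array features and not for them. The prr1 window is shown because the prr1 upstream feature had the one ratio past the test. The ctt1 and gpx1 windows are shown because each holds a sequence element tied to the regulators above. Capitals mark TGACGT, the core of the cAMP response element, and TTACGTAA, the palindrome of Pap1-type factors. All lines run 5′ to 3′ on the strand of the gene.
prr1: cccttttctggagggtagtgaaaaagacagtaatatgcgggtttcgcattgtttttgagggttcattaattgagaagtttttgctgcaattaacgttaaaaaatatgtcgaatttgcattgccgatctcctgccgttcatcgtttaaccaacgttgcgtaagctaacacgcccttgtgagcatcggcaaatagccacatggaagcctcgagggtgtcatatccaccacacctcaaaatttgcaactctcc
ctt1: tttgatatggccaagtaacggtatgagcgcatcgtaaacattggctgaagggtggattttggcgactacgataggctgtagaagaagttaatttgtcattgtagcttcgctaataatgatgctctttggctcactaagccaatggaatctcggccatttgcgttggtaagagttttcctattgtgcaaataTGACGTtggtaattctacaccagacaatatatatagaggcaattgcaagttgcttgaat
gpx1: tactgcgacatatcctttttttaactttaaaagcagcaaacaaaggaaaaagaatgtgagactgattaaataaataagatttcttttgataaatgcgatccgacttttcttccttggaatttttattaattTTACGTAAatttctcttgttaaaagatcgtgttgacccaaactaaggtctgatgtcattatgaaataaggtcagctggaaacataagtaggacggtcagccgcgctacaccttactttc
The prr1 window lies at chrI:3665682-3665931 on the plus strand, the ctt1 window at chrIII:58834-59083 on the minus strand and the gpx1 window at chrII:2789588-2789837 on the minus strand. Both strands were searched, and TGACGT was present in 2 of the 10 member windows, in ctt1 at position -59 and in gst3 at position -48 from the gene start, against 5.5% of 5123 windows of this length in the genome. TTACGTAA was present in gpx1 alone among the members, at position -119, against 0.468% of all windows. The Yap1-type site TTACTAA, or TTAGTAA on the other strand, was present in gst1 at position -123 and in gst2 at position -127, against 10.8% of all windows. No window held more than 1 of these matches, so none overlapped another. The windows of prr1, pap1, sod1, trx2 and trr1 held none of these sets of letters, which says only that the letters are not in these 250 bases.

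Much of what the arrays could say about these genes was set by missing signal. A ratio needs signal in both channels of at least 1 of the 2 spots of a feature, and both channels were present in 49.0% of feature spots on Sl1, 37.7% on Sl2 and 95.5% on Sl10. Intergenic spots were hit harder than coding spots on the first 2 arrays, with both channels in 33.3% against 65.4% on Sl1 and in 26.8% against 49.1% on Sl2. Of the 11 upstream member features, 4 had a ratio on all 3 arrays, 3 on 2 arrays and 4 on 1 array. Of the 11 coding member features, 5 had a ratio on all 3 arrays and 6 had one on Sl10 alone. Where both spots of a member feature gave a ratio, which happened 34 times, they differed by a median of 0.20 and by at most 0.69 on the log2 scale.

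**Figure D1:**
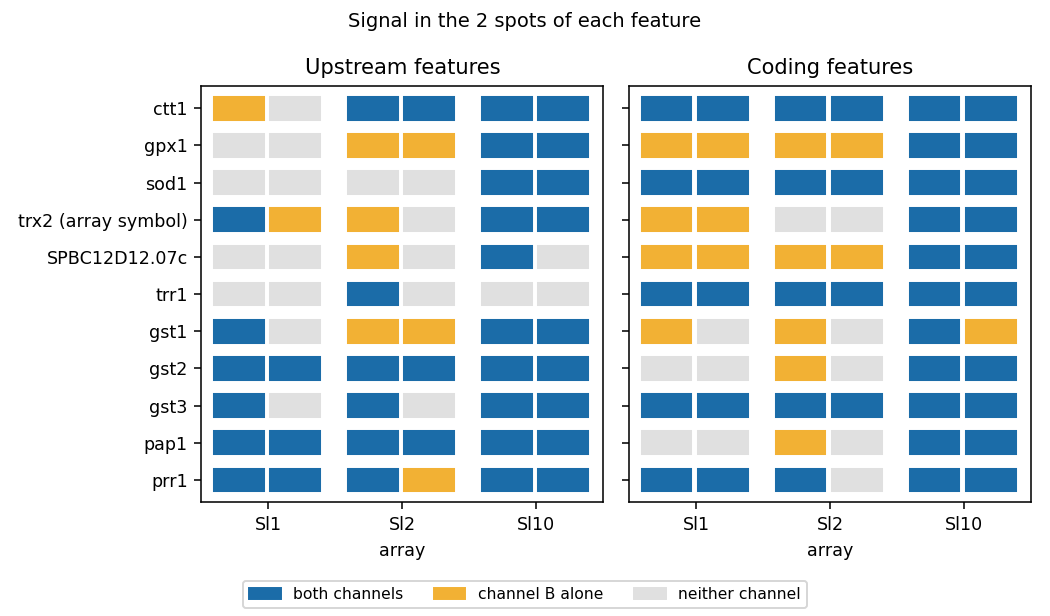
Signal in each of the 2 spots of every member feature, by array (columns) and gene (rows), with upstream features on the left and coding features on the right. Blue stands for signal in both channels, orange for channel B alone and grey for neither; the Sl10 columns are nearly all blue, and among the upstream features those of gst2 and pap1 are the ones with both spots complete on all 3 arrays, as are the coding features of ctt1, sod1, trr1 and gst3.

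The direction of the ratios is not settled by the labels. They give input as Cy3 and precipitate as Cy5 on every array, with no dye swap, but the scanner files name their channels only A and B. When B was divided by A throughout, Sl10 ran against the others, with a Pearson correlation across 3960 features of -0.48 with Sl1 and -0.54 with Sl2, while Sl1 and Sl2 correlated at 0.72. The deposited table of the series followed the intensity of channel B on Sl1 and Sl2 (Spearman 0.97 and 0.94 across spots) and followed channel A more closely than channel B on Sl10 (0.93 against 0.71). The values below therefore use B over A on Sl1 and Sl2 and A over B on Sl10. This direction is likely but was chosen with the data known, so every result is also given with Sl10 turned, that is with B over A on each of the arrays, where each Sl10 value takes the opposite sign. If A were the precipitate on Sl1 and Sl2, every sign would turn. Ratios are log2 values of the 2 channels' integrated intensities, averaged over the spots of a feature and centred on each array's median, so that 0 is the typical feature.

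In this reading the region upstream of prr1 was the one member feature that stood above the typical feature by the test. The ratios are centred on each array's median, so enriched and depleted mean relative to the typical feature and not to input. Of 9 member features with a ratio on all 3 arrays, limma called 1 enriched and 0 depleted at an adjusted p under 0.05, and no other member feature passed at an unadjusted p under 0.05. Over all features tested, 8.26% were enriched and 5.61% depleted. The enriched member was among the 4 upstream features tested, where the background was 19.7% enriched and 0.904% depleted among intergenic features. None of the 5 coding features tested was called, against a background of 2.43% enriched and 7.86% depleted among all coding features tested. The median of the 9 member means was 0.03, and that of all 3960 features tested was -0.07. With Sl10 turned, limma called no feature of the 3960, members included, although 138 had an unadjusted p under 0.05.

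The prr1 upstream feature measured 1.59 on Sl1, 2.16 on Sl2 and 2.32 on Sl10. All 3 arrays lay well above the typical feature, at percentiles 93.8, 97.4 and 98.5 of their own array. The mean log2 ratio was 2.02 ± 0.38 (SD, n = 3), a 4.06-fold ratio, with an adjusted p of 0.0028 in limma. Among the 1327 intergenic features tested this mean was the 69th highest, and all 69 were among the 261 called enriched, so many regions had a higher ratio. Turning Sl10 makes the values 1.59, 2.16 and -2.32, and the mean is 0.48 ± 2.44 (SD, n = 3), with an adjusted p of 0.928.

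The spots behind the prr1 value were complete on 2 of the arrays. On Sl1 the channel taken as precipitate had mean pixel intensities of 2355 and 2469, above the limit of 1959 that 95% of negative-control spots stayed under, and the other channel had 387 and 512. On Sl10 it had 14078 and 13604, against 3023 and 3441 in the other channel and a limit of 223. On Sl2 a single spot gave the ratio, with 3552 against 520, and the second spot had 3903 with no signal in the other channel. Both Sl2 precipitate readings were below that array's limit of 4452, so the Sl2 ratio rests on signal within the range of the negative controls. Leaving out Sl2 gave a mean of 1.95 with an adjusted p of 0.0175 in limma.

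The prr1 coding feature did not share the upstream ratio. It measured -0.30 on Sl1, -0.05 on Sl2 and 0.35 on Sl10, a mean of 0.00 ± 0.33 (SD, n = 3) with an adjusted p of 0.999. The upstream feature exceeded it by 1.89 on Sl1, 2.21 on Sl2 and 1.97 on Sl10. The difference was therefore of similar size on the 3 arrays, with a mean of 2.02 ± 0.17 (SD, n = 3). The exact sign-flip permutation test over arrays gave a two-sided p of 0.25, which is the smallest that 3 arrays allow, and 0.5 after adjustment over the 2 genes that could be tested. The difference with Sl10 turned was 0.71 ± 2.32 (SD, n = 3).

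**Figure D2:**
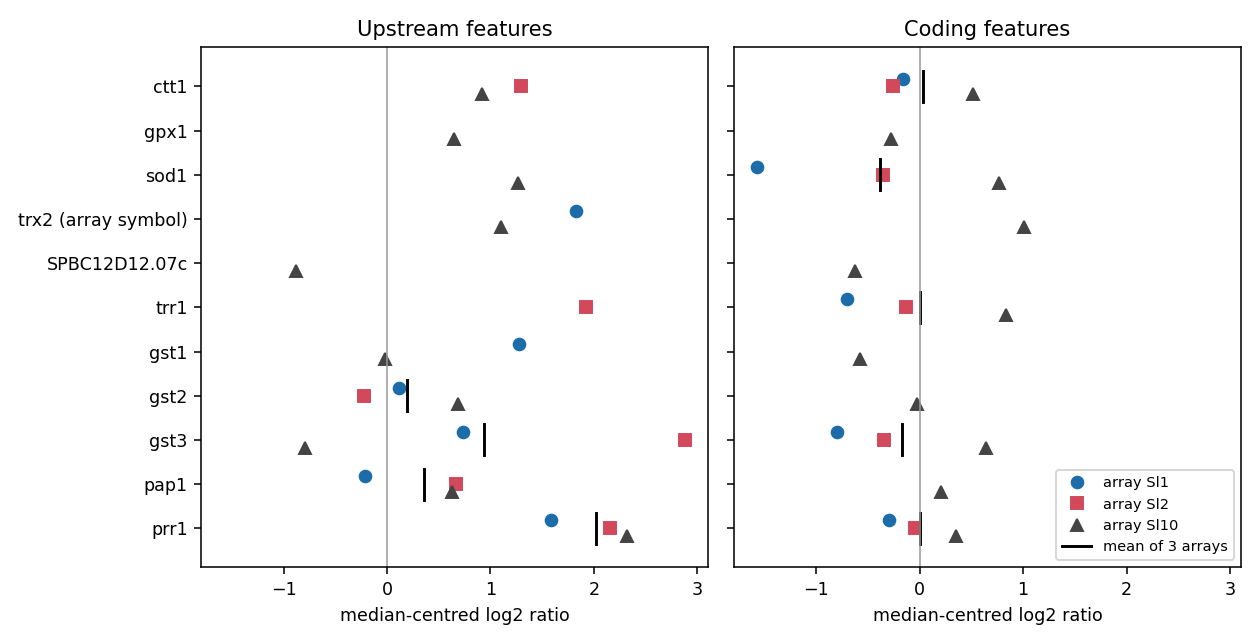
Median-centred log2 ratio (horizontal axis) of each member feature on Sl1, Sl2 and Sl10, with upstream features on the left and coding features on the right; black bars are means of features with 3 values. The prr1 upstream feature has all its values between 1.59 and 2.32, while all 5 coding features with 3 values have negative values on Sl1 and Sl2 and a positive value on Sl10.

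The other regulator gene, pap1, was near the typical feature. Its upstream feature measured -0.21 on Sl1, 0.67 on Sl2 and 0.63 on Sl10, a mean of 0.36 ± 0.50 (SD, n = 3) with an adjusted p of 0.467 in limma. The 3 values lay on both sides of 0, and the median of all intergenic features tested was 0.36 as well. Once turned, the Sl10 value becomes -0.63 and the 3 values again lie on both sides of 0. The pap1 coding feature had a ratio on Sl10 alone, at 0.20, or -0.20 once turned.

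The enzymes that remove peroxide and superoxide had positive upstream ratios in this reading, on few arrays. The ctt1 upstream feature had no ratio on Sl1 and measured 1.30 on Sl2 and 0.92 on Sl10, a mean of 1.11 ± 0.27 (SD, n = 2). Its Sl2 spots had 3688 and 4952 in channel B, on average below that array's negative-control limit of 4452. Requiring precipitate signal above the limit gave a ctt1 mean of 0.72. Before centring the 2 Sl2 spots had ratios of 1.92 and 1.91, so leaving out the dimmer spot barely moved the ratio. At that setting each array is centred on the spots kept, which lowers the centred value. The gpx1 upstream feature, whose window holds the TTACGTAA palindrome, had a ratio on Sl10 alone, at 0.65. On Sl2 both gpx1 spots had signal in channel B, at 3577 and 2816, with none in channel A, and both readings were below the negative-control limit. The sod1 upstream feature also had a ratio on Sl10 alone, at 1.27, which is at percentile 93.6 of that array. The separate feature IGR-longIGRctt1 measured 0.56 on Sl1 and 0.25 on Sl10, lower on Sl10 than the ctt1 upstream feature. Without replication on 3 arrays none of these features entered the test, and with Sl10 turned the Sl10 values of ctt1, gpx1 and sod1 become -0.92, -0.65 and -1.27, and that of IGR-longIGRctt1 becomes -0.25.

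Their coding features gave no call. The ctt1 coding feature, present under the older symbol cta1, measured -0.16 on Sl1, -0.26 on Sl2 and 0.52 on Sl10 (mean 0.03 ± 0.42 SD, n = 3), and the adjusted p in limma was 0.954. The sod1 coding feature measured -1.57, -0.36 and 0.77 on the same arrays (mean -0.39 ± 1.17 SD, n = 3), with an adjusted p of 0.558 in limma. The sod1 values span more than those of any other coding member with 3 values and lie on both sides of 0. The gpx1 coding feature had a ratio on Sl10 alone, at -0.28, or 0.28 once turned.

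The thioredoxin genes differed by array name. The array holds a feature called trx2 and a separate one called SPBC12D12.07c, which RefSeq names trx2, and it holds none called trx1 or SPAC7D4.07c, the trx1 locus. Which thioredoxin locus the feature called trx2 stands for is therefore not settled. The upstream feature called trx2 measured 1.83 on Sl1 and 1.10 on Sl10, a mean of 1.47 ± 0.51 (SD, n = 2), and the one for SPBC12D12.07c measured -0.88 on Sl10 alone. On that shared array the 2 upstream features lay on opposite sides of 0. Their coding features did so too, at 1.01 for trx2 and -0.63 for SPBC12D12.07c, each on Sl10 alone. Turning Sl10 gives each of these Sl10 values the other sign. The SPBC12D12.07c upstream value rests on 1 spot, with 407 in channel A and 876 in channel B, and was -0.11 with loess. Where limma was run on features with a ratio on 2 or more arrays, the upstream feature called trx2 passed together with that of prr1 (adjusted p = 0.0462 for trx2), against a background of 13.7% of intergenic features enriched. The same 2 values did not pass when Sl2 was left out of the fit (adjusted p = 0.0846 in limma). The Sl1 value rests on 1 spot, with mean pixel intensities of 1891 in channel B and 295 in channel A, and 1891 is below that array's negative-control limit of 1959.

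The thioredoxin reductase gene trr1 had an upstream ratio on Sl2 alone, at 1.92, which does not depend on how Sl10 is read. It rests on a single spot with intensities of 20222 in channel B and 3484 in channel A, and that spot carries the flag S, a mark the files do not define. Its precipitate reading was well above the Sl2 negative-control limit. The trr1 coding feature measured -0.70 on Sl1, -0.14 on Sl2 and 0.83 on Sl10, with a mean of -0.00 ± 0.78 (SD, n = 3) and an adjusted p of 0.997 in limma.

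The upstream ratios of the glutathione S-transferase genes differed between arrays, most of all for gst3. The gst3 upstream feature measured 0.73 on Sl1, 2.89 on Sl2 and -0.80 on Sl10, a mean of 0.94 ± 1.85 (SD, n = 3) with an adjusted p of 0.273 in limma. Its Sl2 value comes from a single spot with the flag S, at 24125 in channel B and 2134 in channel A. Without spots of that flag the mean over the other 2 arrays was -0.03. The gst2 upstream feature measured 0.11, -0.22 and 0.69 on Sl1, Sl2 and Sl10, a mean of 0.19 ± 0.46 (SD, n = 3) with an adjusted p of 0.703 in limma, and its Sl10 value becomes -0.69 once turned. The gst1 upstream feature measured 1.28 on Sl1 and -0.02 on Sl10, a mean of 0.63 ± 0.92 (SD, n = 2). Its Sl1 value rests on 1 spot, with 1557 in channel B, below that array's negative-control limit of 1959. As reported, none of these 3 upstream features showed 1 direction on every array that measured it. With Sl10 turned, gst3 (0.80 on Sl10) and gst1 (0.02 on Sl10) were positive on every array that measured them, and gst2 was not.

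The gst3 coding feature measured -0.80 on Sl1, -0.35 on Sl2 and 0.64 on Sl10, a mean of -0.17 ± 0.74 (SD, n = 3) with an adjusted p of 0.770 in limma. The upstream feature of gst3 exceeded it by 1.53 on Sl1 and 3.23 on Sl2 and lay below it on Sl10, at -1.44. The mean difference was 1.11 ± 2.36 (SD, n = 3), with a two-sided exact permutation p of 0.5, and it was 2.07 ± 1.01 (SD, n = 3) with Sl10 turned. The gst1 and gst2 coding features had ratios on Sl10 alone, at -0.58 and -0.03, or 0.58 and 0.03 once turned.

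Across the genes the upstream features tended to sit above the coding features, as intergenic features did over the whole array. On Sl1 the 6 measured upstream features had a median of 1.00 and 5 were positive, beside a median of 0.63 and 76.5% positive over all intergenic features. On Sl2 the median of 6 was 1.61 with 5 positive, beside 0.55 and 77.6%. Of these 6, ctt1, gst2, pap1 and prr1 had precipitate signal on average below the negative-control limit of Sl2. Those of trr1 and gst3 each rest on a single spot with the flag S, so the Sl2 median is weakly supported. On Sl10 the median of 10 was 0.67 with 7 positive, beside 0.07 and 55.3%. The 5 coding features measured on Sl1 and on Sl2 had medians of -0.70 and -0.26 with 0 positive, beside -0.18 with 42.5% positive and -0.21 with 40.9% over all coding features. On both of these arrays all 5 had precipitate signal on average below the negative-control limit. On Sl10, where all 11 coding features were measured, the median was 0.35 with 7 positive, beside -0.08 and 43.4%. The upstream feature was the higher one in 8 of 10 pairs on Sl10. With the channels of that array turned it was 2 of 10, and every Sl10 median takes the opposite sign. The share of such pairs over all genes was not computed, so this count is not read as a trait of the members. On Sl2 the ctt1 upstream feature exceeded its coding feature by 1.56 and the trr1 one by 2.06, values that do not depend on Sl10. The ctt1 precipitate signal there was on average below the negative-control limit, and the trr1 upstream value rests on a single spot with the flag S. The share of upstream features that gave a ratio was lower than that of coding features on Sl1 and Sl2 over the whole array. Among the members the shares were close, with both channels in 9 of 22 upstream and 10 of 22 coding spots on Sl1. On Sl2 it was 9 of 22 for each kind. The part of missing signal in these medians was not tested.

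**Figure D3:**
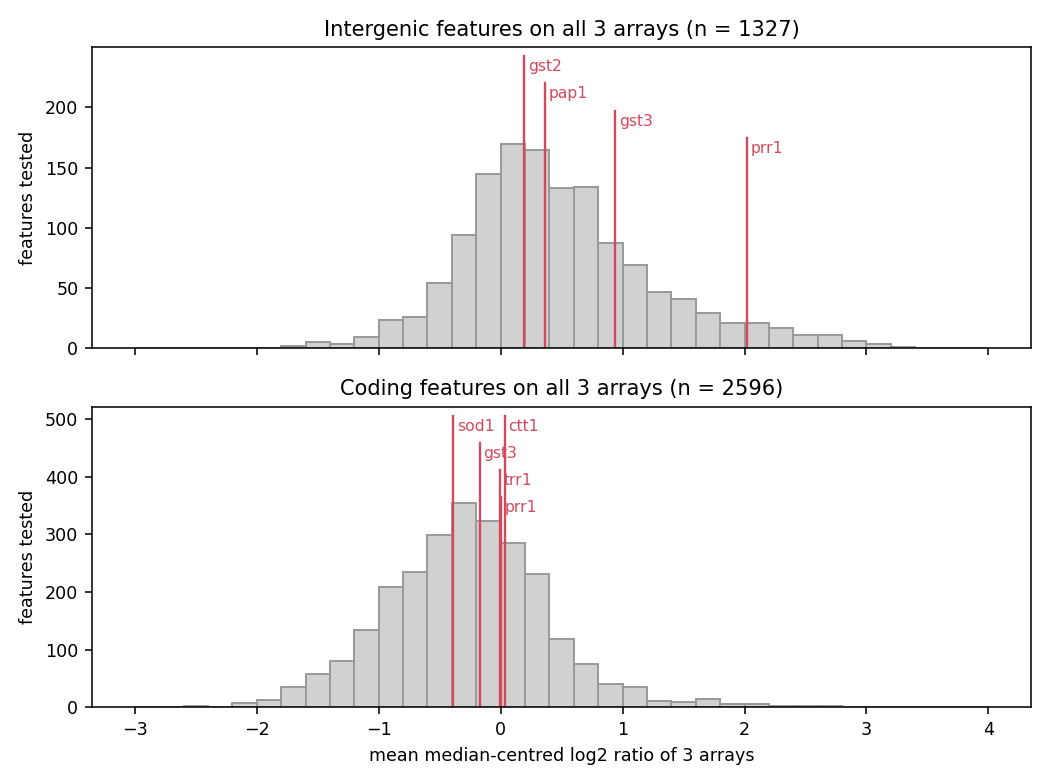
Number of features (vertical axis) by mean log2 ratio of 3 arrays (horizontal axis) for the 1327 intergenic and 2596 coding features tested, with red lines at the member features. The prr1 upstream feature lies in the upper tail at 2.02, and the 5 coding members lie between -0.39 and 0.03.

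The labels describe a ranking rule, in which a feature is listed when the median of its percentile ranks reaches the 85th percentile. By this rule 6 of the 22 member features were listed, 5 upstream and 1 coding, and 3 of the 6 were ranked on 1 array only. The background was 17% of all intergenic and 5.18% of all coding features ranked. The listed upstream features were prr1, trr1, the feature called trx2, sod1 and ctt1, at median percentiles of 97.4, 96.3, 94.0, 93.6 and 90.2. The listed coding feature was trx2, at percentile 90.8. The gpx1 upstream feature lay just outside, at 83.9. With percentiles taken within intergenic and within coding features, 5 members were listed and the ctt1 upstream feature was not. With Sl10 turned, 6 member features were again listed, against 14.1% of intergenic and 5.88% of coding features, but the 2 lists shared only the upstream features of prr1 and trr1. The trr1 feature has no Sl10 value, so turning Sl10 cannot change its rank. At that setting prr1 stood at a median percentile of 93.8, which is its Sl1 percentile. The shared listing therefore rests on Sl1 and Sl2 and does not bear on the direction of Sl10. The other listed features were gst3 upstream, gst1 coding and both features of SPBC12D12.07c.

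The reading of Sl10 changed which group of members looked uniform. As reported, 0 of the 5 tested coding features had 1 sign on all 3 arrays, where 34.7% of all coding features tested were negative on all 3 and 12.9% positive. On Sl1 and Sl2 these 5 all had precipitate signal on average below the negative-control limit, which limits their signs there. With Sl10 turned, all 5 were negative on all 3 arrays, against 19.2% of coding features tested. The means were then -0.31 ± 0.18 for ctt1, -0.90 ± 0.62 for sod1, -0.56 ± 0.37 for trr1, -0.60 ± 0.23 for gst3 and -0.23 ± 0.16 for prr1 (SD, n = 3 each), and limma's adjusted p lay between 0.777 and 0.899. The gst3 upstream feature was then positive on all 3 arrays, with a mean of 1.47 ± 1.23 (SD, n = 3) and an adjusted p of 0.777 in limma, against 12.5% of intergenic features tested that were positive on all 3. As reported, prr1 was the 1 upstream member positive on all 3 arrays, against 48% of intergenic features.

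**Figure D4:**
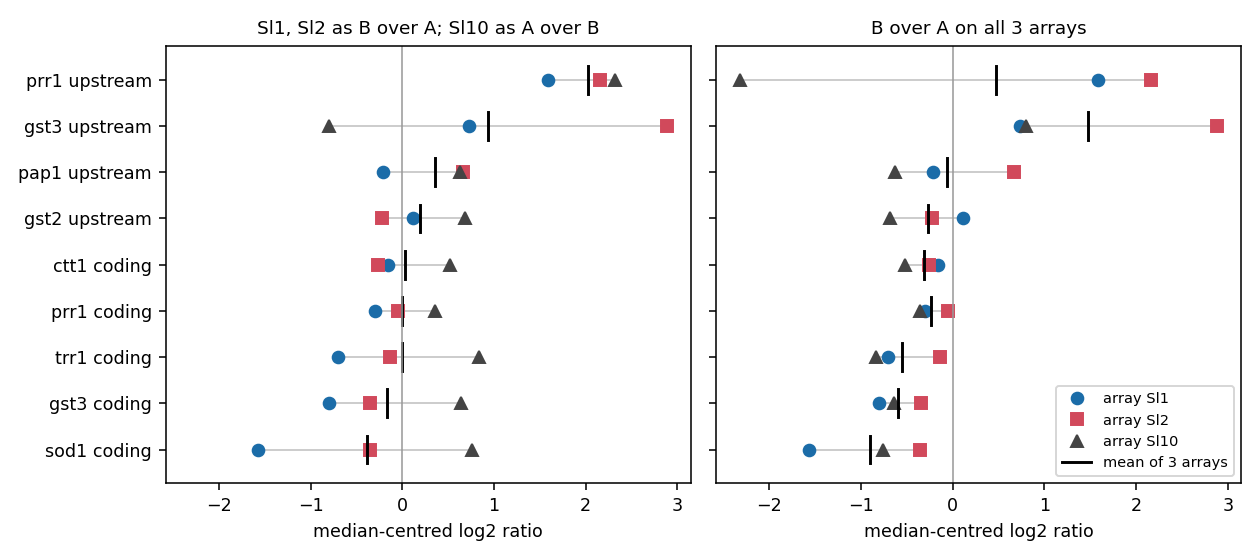
Log2 ratio (horizontal axis) of the 9 member features measured on all 3 arrays, with the direction used here on the left and B over A for every array on the right; points are arrays, black bars are means and grey lines are ranges. The prr1 upstream points cluster near 2.02 on the left and split to either side of 0 on the right, while the 5 coding features straddle 0 on the left and lie below 0 on the right.

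Partners of these enzymes in the same pathways were read from 5 lists holding 39 genes, of which 38 had a feature. Upstream, 5 of 18 tested features were enriched and 0 depleted, beside 19.7% enriched and 0.904% depleted among all intergenic features tested, with a median of 0.64 beside 0.36. In coding features 1 of 21 tested was enriched and 1 depleted, beside 2.43% enriched and 7.86% depleted among all coding features tested, with a median of -0.10 beside -0.28. With Sl10 turned, limma called 0 of these 39 tested features.

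The thioredoxin-linked peroxiredoxin cycle held 3 of these calls. The region upstream of tpx1, which encodes the main thioredoxin peroxidase, measured 1.39, 1.82 and 2.68 on Sl1, Sl2 and Sl10 (mean 1.96 ± 0.66 SD, n = 3), with an adjusted p of 0.0054 in limma. The tpx1 coding feature was enriched too, at 1.33 ± 0.80 (SD, n = 3) with an adjusted p of 0.0348 in limma. The region upstream of srx1, the sulfiredoxin that restores over-oxidised Tpx1, measured 1.72, 1.02 and 2.47 (mean 1.74 ± 0.73 SD, n = 3), with an adjusted p of 0.0104 in limma. All of these values were positive, and these 2 upstream features were the only ones of their list tested. Among the features of that list measured on all 3 arrays, the lowest mean was that of the coding feature of the thioredoxin-like gene txl1, at 0.42, and with Sl10 turned this feature has the highest, at 0.35.

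Among the glutathione genes, the region upstream of zwf1, which encodes the glucose-6-phosphate dehydrogenase that supplies NADPH, had in this reading the highest mean among the features of the 5 lists measured on all 3 arrays. With Sl10 turned its mean is 0.08, the lowest of the 5 enriched upstream features. It measured 1.45 on Sl1, 2.21 on Sl2 and 3.41 on Sl10 (mean 2.35 ± 0.99 SD, n = 3), with an adjusted p of 0.0046 in limma. The region upstream of gcs1, which encodes glutamate-cysteine ligase, had a mean of 1.46 ± 0.54 (SD, n = 3) and an adjusted p of 0.0152 in limma. The gcs1 upstream feature measured 1.04 on Sl1, 2.06 on Sl2 and 1.28 on Sl10. Its Sl2 precipitate signal, behind the highest of these values, was on average below the negative-control limit. The depleted feature was the coding feature of the glutathione synthetase gene gsh2, on the array as gsa1, at -1.03 ± 0.12 (SD, n = 3) with an adjusted p of 0.0404 in limma. A single depleted feature among 21 is no more than the background share, and with Sl10 turned the gsh2 mean is -0.26.

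In the stress kinase list, the region upstream of sty1, the kinase upstream of Atf1, measured 1.89, 1.49 and 1.54 (mean 1.64 ± 0.21 SD, n = 3), with an adjusted p of 0.0062 in limma. The lowest mean among its features on all 3 arrays was the coding feature of the kinase gene wis4, at -1.04 or -0.78 with Sl10 turned, which did not pass (adjusted p = 0.058 in limma as reported). In the list of Pap1 partners and targets no feature passed. Among its features on all 3 arrays the highest mean was upstream of hba1, which encodes a Ran-binding protein that takes part in Pap1 export, at 0.90, and the lowest was the coding feature of the efflux gene caf5, at -0.75. With Sl10 turned these are 0.66 and -0.70, again the highest and the lowest. No feature of the superoxide list, which holds the mitochondrial superoxide dismutase gene sod2 and the copper chaperone gene ccs1, was measured on all 3 arrays. The enriched upstream features of these lists had means between 0.08 and 0.61 with Sl10 turned.

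Features of the genes next to the members were looked up after the member values had been seen. Over all intergenic features tested, 19.7% were enriched. Over all coding features tested, 2.43% were enriched and 7.86% depleted. The share called among these neighbours was not computed. prr1 and mrs3 are transcribed away from a shared intergenic region in RefSeq, and the feature upstream of mrs3 measured 1.19 on Sl1, 1.14 on Sl2 and 1.43 on Sl10 (mean 1.25 ± 0.15 SD, n = 3), with an adjusted p of 0.0191 in limma. The mrs3 coding feature was not called, at 0.31 (adjusted p = 0.50 in limma). gst1 likewise shares a region with SPCC191.10, whose upstream feature measured 1.91, 1.89 and 1.73 (mean 1.84 ± 0.10 SD, n = 3) with an adjusted p of 0.0035 in limma. The gst1 upstream feature had -0.02 on Sl10, where its neighbour had 1.73, so the 2 features named for that region differed on the same array. gpx1 and gtb1, on the array as tug1, are divergent too. On Sl10, the only array to measure either upstream feature, gtb1 had -1.03 and gpx1 had 0.65, on opposite sides of 0. sod1 and pro1 are also divergent, and on Sl10 alone their upstream features measured 1.27 and 0.40, both positive. The SPCC191.10 coding feature was enriched as well, at 1.68 ± 0.64 (SD, n = 3) with an adjusted p of 0.0103 in limma. The feature upstream of SPCC757.06, the gene downstream of ctt1, was enriched at 0.99 ± 0.23 (SD, n = 3) with an adjusted p of 0.0480 in limma. SPCC757.06 is on the opposite strand, so this feature lies on the side of the gene away from ctt1. The coding feature of eng1, the gene downstream of sod1, was depleted at -1.53 ± 0.98 (SD, n = 3) with an adjusted p of 0.0274 in limma. erg26 and trr1 are transcribed away from a shared region as well. The feature upstream of erg26 measured 0.36, 0.91 and 1.22 (mean 0.83 ± 0.44 SD, n = 3) and did not pass, with an adjusted p of 0.0955 in limma. On Sl2, where it had 0.91, the trr1 upstream feature had 1.92. With Sl10 turned, the Sl10 values of these neighbouring features take the opposite sign and none of them was called.

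The features most like the member with the highest mean, prr1 upstream, were found by Euclidean distance of the log2 ratios over the 3 arrays. They were the regions upstream of SPCC1223.13, named cbf12 in RefSeq, SPBC660.05, named wwm3, and SPAC56F8.13, at distances of 0.15, 0.16 and 0.21. Each was enriched, with means of 1.96, 2.06 and 2.08. The coding features most like the lowest member mean, that of sod1 coding, were SPAC29B12.08, SPCC1840.07c and wtf8, at distances of 0.16, 0.22 and 0.24, and none of these was called. All 6 were picked for ratios close to those of a member, so whether they were called follows largely from that choice. With Sl10 turned, none of the 6 was called, as limma called no feature at that setting.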

How the data were processed

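The scanner files of 3 arrays hold, per the file headers, integrated intensity, mean pixel intensity, background and a flag for 2 channels of each spot, as TIGR Spotfinder wrote them; whether the deposited intensity is already background-subtracted is not given in the sources used here. The deposited series table holds one value per spot and array, read as log10 with a floor of -2, which the authors made in GeneSpring by median normalisation and removal of flagged spots, per the labels. Its column medians are 0.01, -0.04 and 0.02 for Sl1, Sl10 and Sl2. Whether it holds ratios, its scale and its direction stay unknown, since each column followed the intensity of 1 channel.

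Here log2 ratios of integrated intensity were taken for spots with signal in both channels, averaged over the 2 spots of a feature and centred on the median of each array, with no loess and no background subtraction. For the 3960 features with a ratio on every array, the mean log2 ratio was compared with 0 in limma (version 3.58.1, R 4.3.3), adjusted by Benjamini-Hochberg with a threshold of 0.05; the fit was checked on simulated data. Each array is 1 separate experiment, and the number of arrays limits the precision. Member features were matched by symbol (13), systematic name (8) or RefSeq synonym (1). The members and lists were chosen with earlier results of these data known. Named from the lists are the features that passed and each list's highest and lowest mean. Also named are the 3 features nearest to the highest and to the lowest member mean.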

Additional observations from a re-analysis of the deposited data

Results flagged for a closer look

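Precipitate signal above the negative-control limit appeared in 2 member spots that gave no ratio. On Sl1, 9 of the 25 member spots without a ratio had signal in the channel taken as precipitate and none in the other channel, and 2 of these 9 exceeded the negative-control limit of 1959. A gpx1 coding spot had a mean pixel intensity of 2149, and a SPBC12D12.07c coding spot had 2053. On Sl2, 14 of 26 such spots had precipitate signal alone and 0 exceeded the limit, and on Sl10 it was 0 of 4. These spots enter no ratio, so both features count as measured on Sl10 alone. Both readings lie just above the limit that 95% of negative-control spots stayed under.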

How the results depend on the processing

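The prr1 upstream call held in 9 of the 11 alternatives in which the feature entered the fit. Among these 9 were background subtraction, normexp, loess, separate centring of feature classes and each array left out. Adjusted p in limma ran from 0.0014 to 0.928 over all 11. The call was lost with B over A on all arrays (mean 0.48, adjusted p 0.928) and in the deposited table (mean 0.96, adjusted p 0.705). At these settings limma called 0 of 3960 features and 0 of 7198 features. Whether the deposited table holds ratios is unknown, so its test against 0 cannot decide whether prr1 is enriched. With the dimmest 10% of denominators left out, or with precipitate signal required above the negative-control limit, prr1 kept 2 arrays and was not tested; the second left no member to test. The count of enriched members was 0 with B over A, with dim denominators left out and in the deposited table, and 2 when features on 2 or more arrays were tested (13.7% of intergenic features enriched), the added one being the upstream feature called trx2 (adjusted p 0.0462, and 0.0846 without Sl2). Enriched list features numbered 0 with B over A and in the deposited table, 2 with background subtraction and 1 without dim denominators. The single depleted list feature became 0 with B over A, background subtraction, loess, separate centring, signal above the limit, features on 2 or more arrays and the deposited table, 3 with normexp, 2 without flag S (an alternative added after seeing the data) and 0 to 2 with 1 array left out. The ranked list held 3 members in the deposited table. The upstream minus coding difference of prr1 was 0.71 with B over A, 2.51 with background subtraction, 1.48 with normexp, 1.80 with loess, 1.45 with separate centring, 1.84 without dim denominators and 1.12 in the deposited table, and 1.93 to 2.09 with 1 array left out. That of gst3 was -1.44 with signal above the limit and 0.05 to 2.38 with 1 array left out. All 9 tested members had precipitate signal that failed to exceed the negative-control limit on at least 1 array, which limits their ratios. No comparison between groups was possible because there is a single group. The upstream minus coding difference was paired within arrays.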
